A study of Mus musculus with 19 samples.

Results

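GATA3, bound inside genes and away from their start sites, was mapped by chromatin immunoprecipitation sequencing (ChIP-seq) in mouse T helper 2 (Th2) cells, and the regions described here are those of its peaks at which no Bcl11b peak was called. They were chosen from the deposited peak lists of late wild-type (WT) Th2 cells. A GATA3 peak was kept when it shared no base with any peak of the input or Bcl11b lists, lay more than 1000 bases from the nearest listed transcription start, and overlapped the interval of the gene to which the list assigns it. This left 7278 of 28612 GATA3 peaks (25.4%), which are 39.0% of the 18643 distal GATA3 peaks without an overlap. The gene around such a peak is called its host. The peak calls themselves chose these regions, so their enrichment and their lack of a Bcl11b peak describe the choice and carry no test.

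GATA3 is the zinc-finger transcription factor that directs naive CD4 T cells into the Th2 fate, in which they secrete interleukins 4, 5 and 13, and it is known to repress the Th1 programme led by T-bet (Tbx21). It binds short DNA words with GATA at their core, often in enhancers inside introns or far from a gene's start. Bcl11b, another zinc-finger protein, commits thymocyte precursors to the T cell lineage, and it is known to act together with GATA3 in Th2 cells.

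Gene expression was measured by RNA sequencing in 16 libraries from 2 experiments, each with early knockout (KO), early WT, late KO and late WT cells and 2 libraries a group. One experiment compared Gata3 KO with WT Th2 cells. For this experiment the sources used here give neither culture nor alleles. In the other, cells carried floxed Bcl11b and CreERT2, a Cre recombinase that 4-hydroxytamoxifen (4-OHT) switches on. Naive CD4 T cells were kept in Th2 conditions for 4 days with 4-OHT (early KO) or without it (early WT), or for 4 days in Th2 conditions, 1 day in IL-2 and 4 more days in Th2 conditions with 4-OHT (late KO) or without it (late WT). KO and WT cells of this experiment both carry the floxed alleles and CreERT2, and the drug and the deletion cannot be told apart. The 3 ChIP-seq libraries (GATA3, Bcl11b and input) came from late WT Th2 cells, 1 library each, so no peak has a replicate check. Nothing states that the 2 RNA libraries of a group came from separate cultures or animals. The p-values therefore measure the spread between these libraries, which may be technical.

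The libraries held 4687550 to 14578000 reads in the genes used. Expression levels are TMM-scaled counts relative to library size (CPM), which compare a gene between libraries and not 1 gene with another. A gene is called where the Benjamini-Hochberg adjusted p of edgeR's quasi-likelihood test, over all genes tested in an experiment, was under 0.05. The T cell markers Cd3e, Cd3g, Cd4 and Lck summed to between 771 and 1045 RPKM (reads scaled to transcript length and library size) in every library of the Gata3 experiment. The 4 B cell markers stayed at or under 0.955 RPKM in sum there. In the Bcl11b experiment the 2 early WT libraries stood apart, with T cell markers summing to 147 and 195 RPKM, against 567 to 1254 RPKM in the other 6. No early Bcl11b comparison is used here.

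Few of these peaks could be shown with their DNA, because sequence was at hand only for the RefSeq promoter windows of GRCm38.p6, each 300 bases long. Since a host's own start lies more than 1000 bases away, such windows belong to other transcripts or to a start that the peak list does not use. Of the 7278 peaks, 27 overlapped a window and 12 had their summit in one. Of these 12 windows, 9 belong to another gene than the host. The GATA words searched were the letters GATA with A or T before them and A or G after them, on either strand. They stood in 10 of the 12 windows (83.3%), against 108 of 204 windows (52.9%) under GATA3-only promoter peaks, 138 of 315 (43.8%) under promoter peaks shared with Bcl11b, and 9778 of all 32851 windows (29.8%). Words of other factors were searched as well, on either strand. The RUNX word TGTGGT stood in 6 of the 12 windows, against 11.8% under GATA3-only promoter peaks, 16.2% under shared promoter peaks and 16.8% of all windows. The AP-1 word TGANTCA stood in 4 of the 12 (33.3%), against 11.8%, 10.2% and 7.81%. The ETS word ACAGGAAG stood in 2 (16.7%), against 3.92%, 5.40% and 3.58%. The STAT word TTCNNNGAA stood in 1 (8.33%), against 8.33%, 11.4% and 8.30%. None of these words holds a GATA word. A match of letters is a description and not a binding site. In 6 of the 12 peaks a GATA word lay within 20 bases of the summit, and those 6 are printed because they show the bases nearest to the point of highest signal. The first is a whole window and the others run up to 60 bases to each side of the summit. Each is written 5′ to 3′ on the strand of the named window, with GATA words in capitals. RefSeq (GRCm38.p6) is the source.
Atp10a, at the window of Gm39019, minus strand, chr7:58730976-58731275: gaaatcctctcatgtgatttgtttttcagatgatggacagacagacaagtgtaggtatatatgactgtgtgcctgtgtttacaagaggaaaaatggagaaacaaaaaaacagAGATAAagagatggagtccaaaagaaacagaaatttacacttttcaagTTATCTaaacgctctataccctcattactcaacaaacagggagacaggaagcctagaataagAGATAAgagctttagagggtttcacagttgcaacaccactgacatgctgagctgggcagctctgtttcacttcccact
1810058I24Rik, own window, plus strand, chr6:35256889-35257009: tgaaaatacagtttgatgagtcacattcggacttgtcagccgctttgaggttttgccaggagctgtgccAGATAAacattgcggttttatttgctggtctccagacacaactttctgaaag
Nek6, at the window of Gm35808, minus strand, chr2:38533388-38533492: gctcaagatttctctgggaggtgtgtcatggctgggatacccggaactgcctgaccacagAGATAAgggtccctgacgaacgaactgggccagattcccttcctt
Bcar1, at the window of Gm51589, plus strand, chr8:111741517-111741637: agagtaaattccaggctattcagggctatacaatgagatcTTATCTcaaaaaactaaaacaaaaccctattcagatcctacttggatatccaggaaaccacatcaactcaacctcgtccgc
Bcl2l1, own window, minus strand, chr2:152828440-152828501: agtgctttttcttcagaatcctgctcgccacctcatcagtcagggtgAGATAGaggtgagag
Nfyc, own window, minus strand, chr4:120815748-120815868: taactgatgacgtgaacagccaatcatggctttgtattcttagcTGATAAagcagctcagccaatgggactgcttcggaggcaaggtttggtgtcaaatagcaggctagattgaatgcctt

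In the Atp10a peak (fold enrichment 7.21, 30 reads) and the Nek6 peak (2.72, 17 reads) the summit base fell inside the word AGATAA. In the peak of 1810058I24Rik (5.34) the word lay 9 bases from the summit, in that of Bcl2l1 (2.23) 8 bases, in that of Nfyc (2.05) 11 bases and in that of Bcar1 (2.51) 15 bases. Bcl2l1 encodes the survival protein Bcl-xL, and Nfyc a subunit of the CCAAT-binding factor NF-Y. Neither Nfyc (log2 fold change 0.21, adjusted p = 0.38) nor Nek6 (0.18, adjusted p = 0.39), a mitotic kinase, was called in early Gata3 KO cells. Bcl2l1 was 139 and 149.8 CPM in early KO cells, against 187 and 239 CPM in early WT cells, and fell by 0.56 on the log2 scale (SE 0.16, adjusted p = 0.027). That call was lost when any of 3 single libraries was left out (adjusted p 0.103 to 0.176), and by limma on either log2(RPKM) scale (adjusted p 0.101 and 0.102).

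Most of these intragenic peaks were weak. The fold enrichment, the authors' ratio of signal to background at each peak, had a median of 3.01 (quartiles 2.11 and 4.51, range 0.97 to 35.01). The reads in a peak had a median of 12 (quartiles 9 and 20, range 8 to 153). The median length was 455 bases. An authors' FDR of at most 1% was given to 5626 peaks (77.3%). The GATA3-only peaks outside their assigned gene (intergenic, n = 11365) were alike in these values, with a median fold enrichment of 3.13 and 12 reads. The 2249 distal intragenic peaks shared with Bcl11b were stronger, with medians of 3.66-fold and 25 reads. A fold enrichment of at least 10 was reached by 222 of the GATA3-only intragenic peaks (3.05%), by 371 of the GATA3-only intergenic peaks (3.26%) and by 283 of the shared intragenic peaks (12.6%). The plot of peak values shows these distributions side by side.

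**Figure D1:**
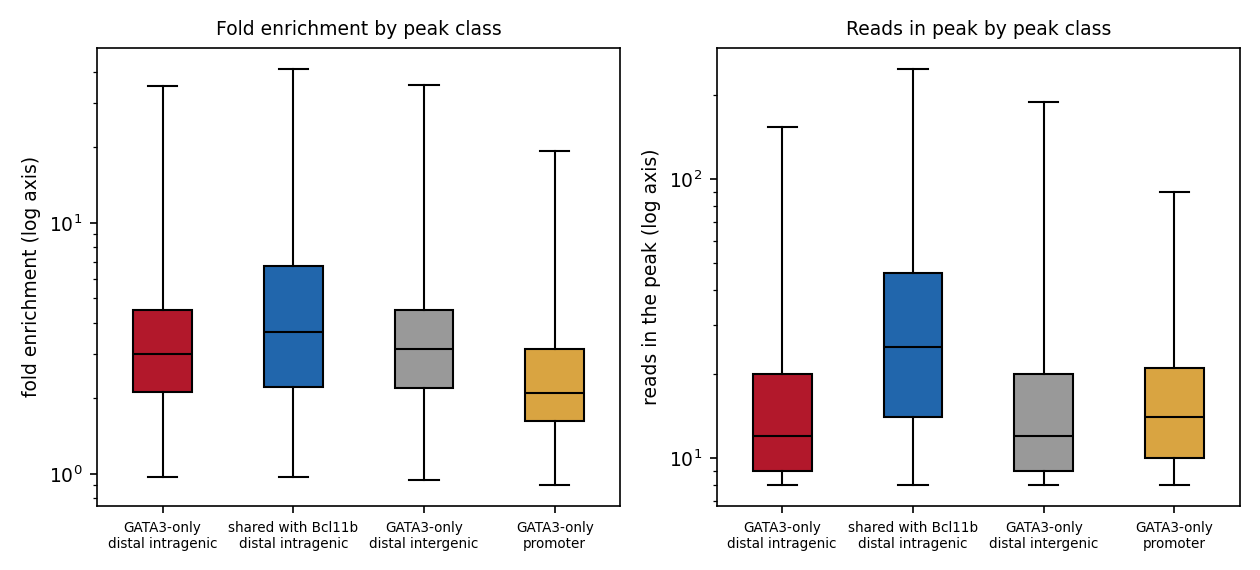
Fold enrichment and reads per peak (log axes) for GATA3-only distal intragenic peaks and the other GATA3 peak classes, from 1 ChIP-seq library of late WT Th2 cells; boxes span the quartiles with a line at the median, and whiskers the whole range. The GATA3-only intragenic peaks have medians of 3.01-fold and 12 reads, below the 3.66-fold and 25 reads of the distal intragenic peaks shared with Bcl11b.

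On either side of the rule's edges the medians were close. The 176 peaks 1001 to 1250 bases from a start had a median fold enrichment of 2.29, and the 195 GATA3-only peaks 751 to 1000 bases away, just outside the rule, had 2.09. The 79 peaks with a Bcl11b peak less than 100 bases away had a median of 2.28, and the 69 distal intragenic peaks that overlapped a Bcl11b peak by 1 to 100 bases had 2.61. The lack of a Bcl11b peak is a statement about calls in 1 library. The nearest Bcl11b peak lay at a median of 12313.5 bases. It lay within 1 kb of 754 GATA3-only intragenic peaks (10.4%) and within 10 kb of 3285 (45.1%), against 8.61% and 38.7% of the GATA3-only intergenic peaks. "Intragenic" here refers to the gene with the nearest start: 3501 of the 11365 GATA3-only peaks listed outside that gene (30.8%) lay inside some other protein-coding RefSeq gene. Whether a peak lies in an exon or an intron was not analysed here.

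The highest fold enrichment was in Rev3l, which encodes the catalytic subunit of DNA polymerase zeta, at chr10:39813142-39814003 (mm10), 81.4 kb from the start, with 35.01-fold and 90 reads. Foxp1, a forkhead factor that keeps naive T cells quiescent, had a peak of 29.68-fold and 92 reads at chr6:99237801-99238654. Zdhhc21, a palmitoyltransferase, followed with 25.82-fold, and Adamts6, a secreted metalloprotease, with 25.06-fold. The next 6 hosts by strongest peak were Gm20139, the cohesin subunit gene Stag1, Amtn, Btbd7, Crlf3 and the polysialyltransferase gene St8sia4, with 18.8- to 21.11-fold. Among these hosts, Crlf3 rose in early Gata3 KO cells, at 142 and 137 CPM in KO cells against 98.4 and 103 CPM in WT cells (log2 fold change 0.47, SE 0.10, adjusted p = 0.0052). St8sia4 fell, at 9.42 and 6.29 CPM in KO cells against 41.7 and 49.98 CPM in WT cells (log2 fold change -2.54, SE 0.22, adjusted p = 1.6e-05). Rev3l was 37.6 and 41.5 CPM in KO cells, against 37.8 and 47.3 CPM in WT cells, and did not pass the test.

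Within their hosts, the peaks lay mostly in the first part of the gene. In steps of 20% of the gene's length from start to end, the shares were 35.1%, 27.2%, 20.9%, 10.2% and 6.51%. The shared distal intragenic peaks had nearly the same shares, 34.4%, 27.3%, 20.4%, 10.9% and 7.07%. The assignment of each peak to the gene with the nearest start favours the first part of a gene. The median distance from the start was 16943.5 bases, with 36.0% of the peaks within 10 kb and 19.8% beyond 50 kb.

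**Figure D2:**
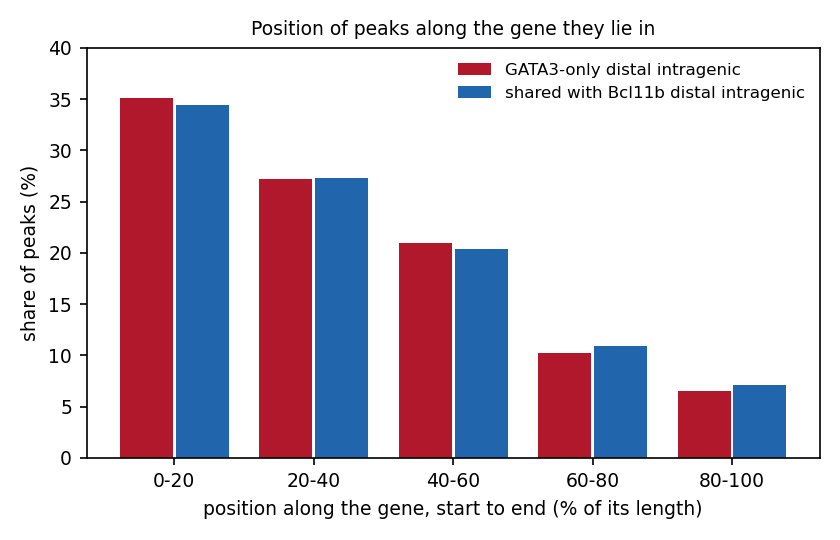
Share of peaks (percent) in each 20% of the host gene's length from its start to its end, for GATA3-only distal intragenic peaks and for those shared with Bcl11b. Both decline along the gene, to 6.51% of GATA3-only and 7.07% of shared peaks in the last step.

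The 7278 peaks lay in 3914 host genes, 6 of the peaks in a pair of overlapping hosts. A single such peak was found in 2466 hosts (63.0%). A further 1051 hosts held 2 or 3, 308 held 4 to 7, and 89 held 8 or more and with them 945 of the peaks (12.98%). Hosts with more peaks were longer, with median gene lengths of 34.4, 63.1, 107 and 209 kb over these 4 classes. Neighbouring peaks of a host lay a median of 7.67 kb apart, and 39.7% of the 3369 neighbouring pairs were within 5 kb. A peak shared with Bcl11b was assigned to 1617 of the hosts (41.3%). No other GATA3 peak was assigned to 1546 of them (39.5%). Here and below, GATA3 peaks that overlap input are not counted as other peaks.

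Inpp4b, a phosphatase of phosphoinositide signalling, held the most with 45 peaks, the strongest at chr8:81658930-81659590 with 11.04-fold, and carried 14 shared intragenic peaks beside them. Satb1, a chromatin organiser of thymocytes and T cells, held 21, the strongest at chr17:51770024-51770630 with 4.68-fold. Ankrd44 held 18 and Prkch, the gene of protein kinase C eta, 17. Tgfbr3, Mbnl1, Sugct and Hdac4 each held 16. Among these hosts the RNA did not move in one direction. Inpp4b was 92.2 and 107 CPM in early Gata3 KO cells, against 112 and 129.8 CPM in early WT cells, and was not called (log2 fold change -0.28, SE 0.12, adjusted p = 0.11). Satb1 was 706 and 689 CPM in early KO cells, against 866 and 706 CPM in early WT cells (-0.17, adjusted p = 0.44). Prkch rose, at 527 and 533 CPM in early KO cells against 199.8 and 265 CPM in early WT cells (1.19, SE 0.16, adjusted p = 2.9e-04). Hdac4, a class IIa histone deacetylase, fell, at 24.7 and 25.2 CPM in early KO cells against 48.8 and 45.2 CPM in early WT cells (-0.91, SE 0.16, adjusted p = 0.0015).

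**Figure D3:**
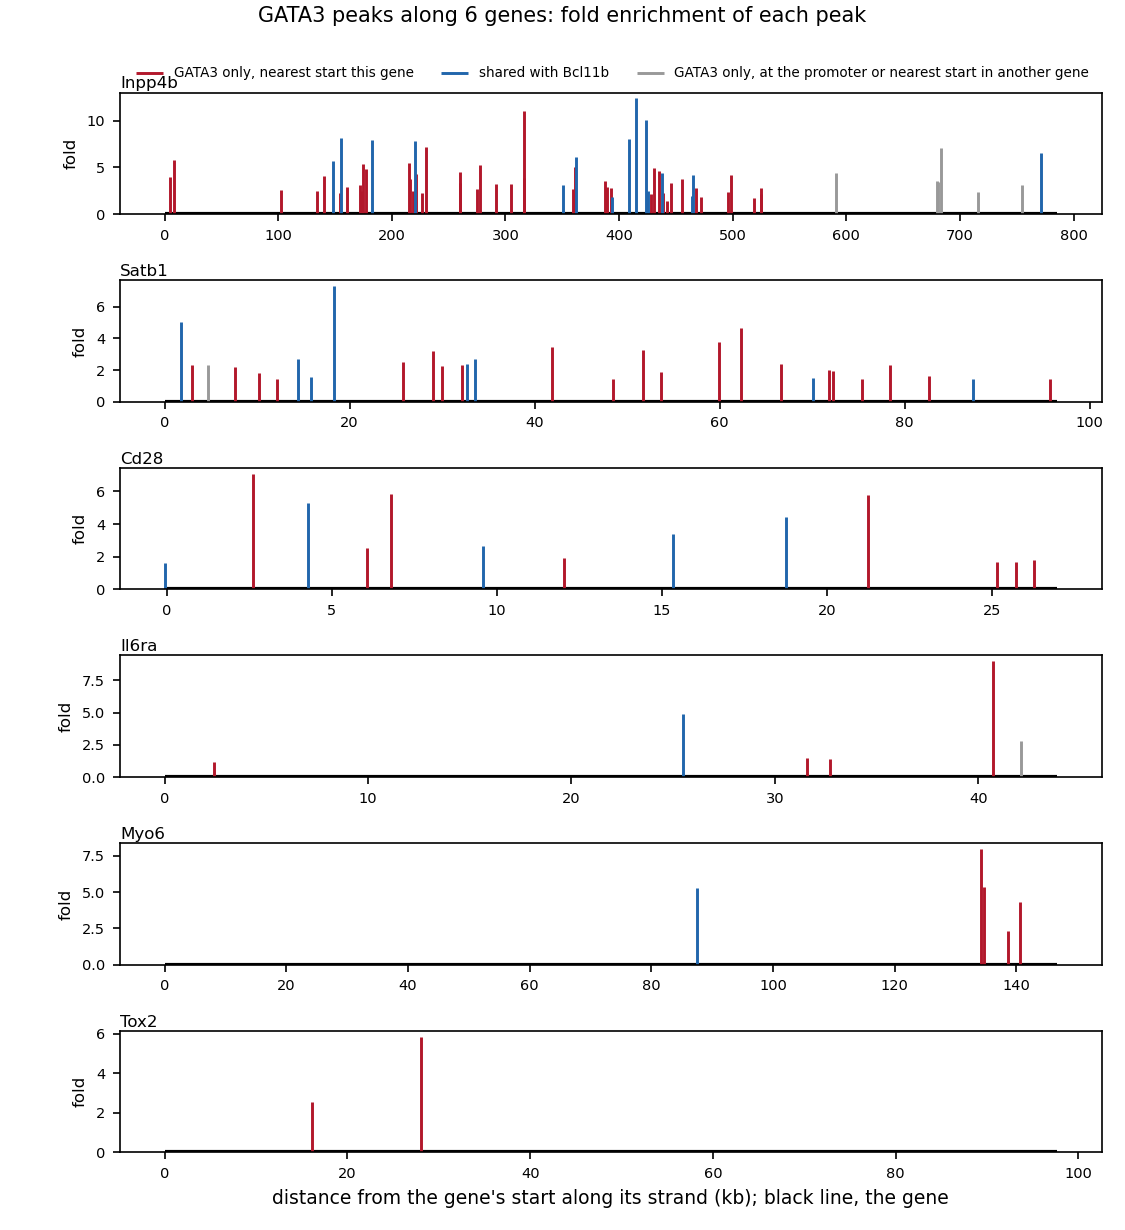
Position of GATA3 peaks in 6 host genes, plotted as distance from the gene's start in kb, with height giving fold enrichment. Red marks GATA3-only intragenic peaks, blue peaks shared with Bcl11b and grey other GATA3-only peaks. Inpp4b carries 45 red peaks and Tox2 2.

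Gene expression in the Gata3 experiment was then compared between KO and WT cells for the hosts. The test covered 10601 genes, of which 2595 were hosts (66.3% of the 3914). The other hosts had no row in the RNA tables or fell under the filter on low values. Peaks were measured in late WT cells, so they stand beside the early comparison as binding seen at a later stage. Gata3 itself, which hosts 1 such peak at chr2:9868689-9869887, was 425 and 419 CPM in early KO cells, against 1178 and 1280 CPM in early WT cells. It fell by 1.54 on the log2 scale (SE 0.11, adjusted p = 5.8e-06). In late KO cells Gata3 was 1090 and 954 CPM, against 1382 and 1327 CPM in late WT cells (log2 fold change -0.41, SE 0.11, adjusted p = 0.036). Leaving out late WT replicate 1 ended this late call (adjusted p = 0.175), as did 5 of the other alternatives. A count over the whole transcript does not separate the deleted part of the gene.

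In early Gata3 KO cells, 577 of 2595 hosts were lower (22.2%) and 460 higher (17.7%), where 16.8% of all genes tested were lower and 14.0% higher. By limma on log2(RPKM + 1) the balance was not kept, with 476 hosts lower (18.3%) and 497 higher (19.2%), where 13.4% of all genes tested were lower and 15.9% higher. By edgeR, the share of lower hosts was larger where there were more peaks. It was 18.1% of 1534 hosts with 1 peak, 25.1% of 726 with 2 or 3, 31.7% of 252 with 4 to 7, and 45.8% of 83 with 8 or more. The share of higher hosts was 16.9%, 18.9%, 19.4% and 16.9% over the same classes. Peaks shared with Bcl11b moved with this order. Among hosts with 4 or more GATA3-only intragenic peaks, 104 of 271 that also had a shared peak assigned were lower (38.4%), against 14 of 64 without one (21.9%). Among hosts with a single such peak the shares were 138 of 551 (25.05%) with a shared peak and 139 of 983 (14.1%) without. Some hosts had no other GATA3 peak assigned, peaks that overlap input left aside. They were lower in 14.6% and higher in 15.9% of 913 genes, near the shares of all genes tested. Genes with no GATA3 peak assigned, counted likewise, were lower in 12.6% of 4964. The excess was not particular to these hosts. Of 2920 genes nearest to a GATA3-only intergenic peak, 23.9% were lower and 17.3% higher. Of 1142 hosts of a shared distal intragenic peak, 29.9% were lower and 18.7% higher. Both sets can include hosts of GATA3-only intragenic peaks. Of 1585 genes that were not hosts but had a shared peak assigned, 21.0% were lower and 15.6% higher.

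Gene length moved with the number of peaks as well, and the lower share stood above that of other genes within each length class. Among genes under 20 kb, 23.7% of hosts were lower, against 15.9% of genes that were not hosts. Between 20 and 100 kb the shares were 21.2% and 12.98%, and 40.2% (47 of 117) for hosts with 4 or more peaks. Above 100 kb they were 23.6% and 18.8%, and 32.1% (69 of 215) for hosts with 4 or more peaks. The share of lower hosts was 20.1% under 5 RPKM, 21.3% from 5 to 20 RPKM and 27.2% above 20 RPKM, against 13.9%, 12.9% and 18.9% of the other genes. These shares describe classes that differ in several ways, and the part of length, level and shared peaks in them was not tested.

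**Figure D4:**
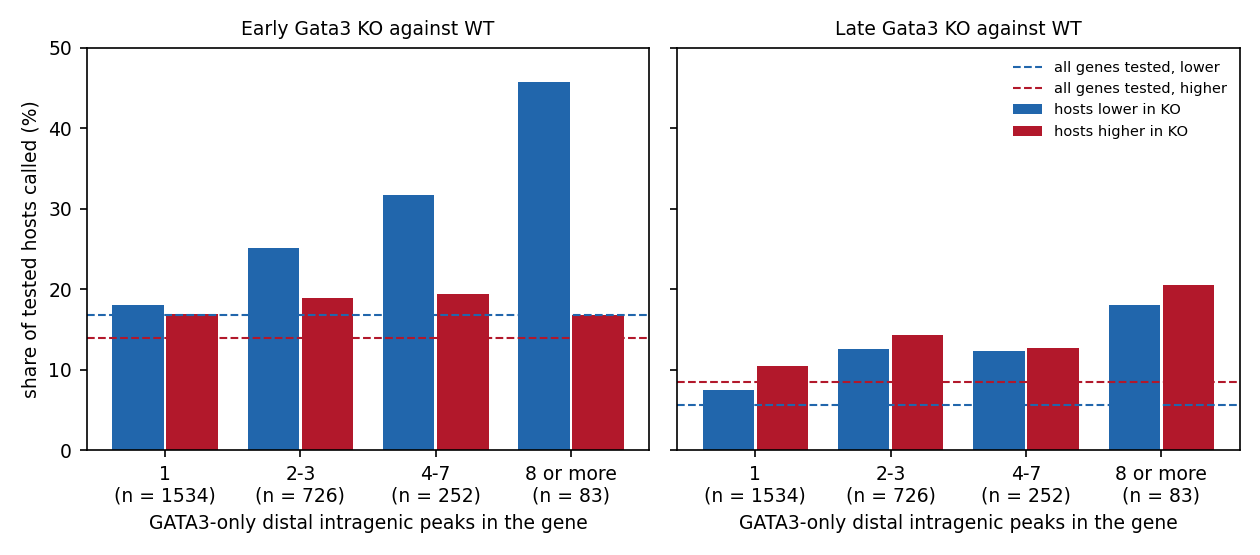
Percent of tested host genes called lower or higher in KO than in WT cells, by the number of GATA3-only intragenic peaks in the gene, for early (left) and late (right) Gata3 cells, with dashed lines for all genes tested. In early Gata3 cells the lower share is 18.1% with 1 peak and 45.8% with 8 or more, while the higher share lies between 16.9% and 19.4%.

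Of the 40 Th2 genes listed, 14 were hosts, with 35 peaks. In early KO cells 11 of the 14 fell and 2 rose, with a median log2 fold change of -1.69, where the median of all genes tested was -0.00251. Of the 35 listed genes tested, hosts or not, 27 fell and 4 rose, so the hosts' share was close to that of the list. Both counts of falls include Gata3, the deleted gene, whose fall the design set in advance. Among all genes tested 16.8% were lower. Il13, the cytokine of mucus production and airway hyperreactivity, had 2.38 and 1.03 CPM in early KO cells, against 214 and 210.3 CPM in early WT cells (log2 fold change -6.93, SE 0.23, adjusted p = 1.8e-07). Its peak, at chr11:53631050-53631554, spans the end of the gene with 2.11-fold. Il1rl1, which encodes the interleukin 33 receptor ST2, had 6.28 and 3.55 CPM in KO cells, against 887 and 1008 CPM in WT cells (-7.58, SE 0.40, adjusted p = 8.7e-07). Its single peak was among the weakest, with 1.57-fold and 8 reads at chr1:40445998-40446378. In both genes the KO libraries lay far below both WT libraries.

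Pparg, a nuclear receptor of Th2 cells, had 3.14 and 1.95 CPM in early KO cells, against 131 and 189 CPM in early WT cells (log2 fold change -5.96, SE 0.32, adjusted p = 8.7e-07). Ccr3, the eotaxin receptor, had 0.433 and 0.343 CPM in KO cells, against 11.8 and 10.1 CPM in WT cells (-4.76, SE 0.48, adjusted p = 4.7e-05). The AP-1 factor Batf had 127 and 115 CPM in KO cells, against 698 and 520.4 CPM in WT cells (-2.33, SE 0.19, adjusted p = 1.3e-05). Its partner Irf4 had 42.8 and 55.8 CPM in KO cells, against 208 and 266 CPM in WT cells (-2.27, SE 0.25, adjusted p = 8.8e-05). Rbpj, the DNA-binding effector of Notch signalling, held 6 peaks, the strongest at chr5:53593946-53594811 with 7.71-fold. It had 132 and 145 CPM in early KO cells, against 478 and 514 CPM in early WT cells (-1.84, SE 0.12, adjusted p = 2.2e-06).

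The other Th2 hosts that fell did so by less. Epas1 fell by 0.98 on the log2 scale, Il24 by 1.18 (adjusted p = 0.023, lost in 3 alternatives) and Rad50, whose gene body contains the known locus control region of the Th2 cytokine cluster, by 0.93. Il4ra, the interleukin 4 receptor, was higher, with 1351 and 1198 CPM in early KO cells against 966 and 750.8 CPM in early WT cells (0.57, SE 0.17, adjusted p = 0.029). That call was lost without any of 3 single libraries. Rai14 rose by 2.06. Nfil3 had 463 and 409 CPM in KO cells, against 515 and 392 CPM in WT cells, and the groups overlapped.

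Of 26 Th1 and cytotoxic genes, 8 were hosts with 14 peaks, and 7 of them rose in early Gata3 KO cells (median log2 fold change 2.16). Of the 25 listed genes tested, hosts or not, 22 rose and 1 fell, a share close to that of the hosts, and 14.0% of all genes tested were higher. Among the hosts, by edgeR none fell, and none was lower at an unadjusted p under 0.05 by edgeR, DESeq2 or limma. Il12rb2, the signalling chain of the interleukin 12 receptor, had 289.6 and 290.1 CPM in early KO cells, against 9.62 and 6.89 CPM in early WT cells (5.14, SE 0.29, adjusted p = 1.1e-06). It held 3 peaks, the strongest at chr6:67368692-67369297 with 4.56-fold. Stat4, which transmits the interleukin 12 signal, had 402 and 372 CPM in KO cells, against 37.5 and 22.2 CPM in WT cells (3.6996, SE 0.28, adjusted p = 6.7e-06). Its 1 peak lies 48.0 kb from the start at chr1:52055981-52056436, with 6.89-fold. Neither gene had a peak shared with Bcl11b assigned.

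The strongest Th1 peaks stood in Tbx21 and Il18r1, which are named here for their peaks after values were seen. Tbx21, the gene of T-bet, held a peak of 13.61-fold and 54 reads at chr11:97103376-97104260. It had 50.5 and 61.2 CPM in early KO cells, against 7.59 and 14.9 CPM in early WT cells (log2 fold change 2.30, SE 0.53, adjusted p = 0.0085), a call lost without early WT replicate 1 (adjusted p = 0.0553) or early KO replicate 2 (0.0520). Il18r1, the interleukin 18 receptor, held a peak of 10.44-fold at chr1:40475452-40476220. It had 15.2 and 13.7 CPM in KO cells, against 4.61 and 3.63 CPM in WT cells (1.81, SE 0.32, adjusted p = 0.0017). The Th1 markers Tbx21 and Ifng summed to 478 to 520 RPKM in early KO libraries, against 4.55 to 4.72 RPKM in early WT libraries. The CD8 T cell markers Cd8a and Cd8b1 summed to 10.5 to 12.8 RPKM in early KO libraries, against 3.29 to 4.25 RPKM in early WT libraries. The part of either in the host values was not tested. In bulk RNA, fewer cells of a type and less RNA per cell cannot be told apart.

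Of 25 Th17, Treg and Tfh genes, 13 were hosts and 10 were tested. Of these 9 fell in early KO cells, as did 16 of the 18 listed genes tested, hosts or not, a share close to that of the hosts. Among all genes tested 16.8% were lower. None of the 10 hosts was higher at an unadjusted p under 0.05 by edgeR, DESeq2 or limma. Tox2, an HMG-box factor of follicular helper cells, had no read in either early KO library, against 13.4 and 28.3 CPM in early WT cells. With 3 counts over the KO group as the floor, it was at least 127-fold lower. Its stronger peak lies at chr2:163253025-163253958 with 5.85-fold and 56 reads. Il21, a cytokine of follicular helper cells, had 1.62 and 1.14 CPM in KO cells, against 53.3 and 75.5 CPM in WT cells (log2 fold change -5.52, SE 0.35, adjusted p = 2.3e-06). Ahr, the ligand-activated aryl hydrocarbon receptor, fell by 3.23, and Il2ra, the high-affinity chain of the interleukin 2 receptor, by 2.20 (adjusted p = 5.8e-07).

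Among 35 T cell transcription factor genes, 21 were hosts and held 110 of the peaks. Of the 19 tested, 9 fell and 4 rose in early KO cells, and over the list, hosts or not, 15 of 32 fell and 8 rose. Tcf7, the gene of the stem-like T cell factor TCF-1, rose by 3.35 (SE 0.35, adjusted p = 6.0e-05), with 68.6 and 98.0 CPM in KO cells against 10.3 and 6.14 CPM in WT cells. Its stronger peak lies at chr11:52260735-52261469, with 6.12-fold. Ikzf3, which encodes the zinc-finger factor Aiolos, fell by 2.91 (SE 0.22, adjusted p = 6.6e-06) and Klf6 by 1.12 (SE 0.12, adjusted p = 7.3e-05). Bcl11b itself held 10 peaks. It had 109 and 107 CPM in early Gata3 KO cells, against 161 and 134 CPM in early WT cells (-0.45, SE 0.12, adjusted p = 0.020), and the call was lost in 5 alternatives.

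Of 30 cytokine receptor and signalling genes, 17 were hosts and 16 were tested, of which 4 fell and 2 rose in early KO cells. Over the list, hosts or not, 9 of 28 fell and 6 rose. Il6ra, the interleukin 6 receptor, carried one of the peaks with most reads, 147 reads and 8.97-fold at chr3:89871978-89872964. It had 0.650 and 0.458 CPM in early KO cells, against 12.3 and 10.3 CPM in early WT cells (-4.31, SE 0.33, adjusted p = 6.9e-06). Il7r, the survival cytokine receptor, fell by 1.95 (SE 0.23, adjusted p = 1.2e-04) and the kinase gene Jak2 by 1.44 (SE 0.16, adjusted p = 1.0e-04).

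T cell receptor and costimulation genes were hosts in 21 of 29 cases, with 90 peaks, and their changes were mixed: of 20 tested, 6 rose and 3 fell in early KO cells, with a median log2 fold change of 0.16. Over the list, hosts or not, 10 of 28 rose and 5 fell, where 14.0% of all genes tested were higher and 16.8% lower. Cd28, the main costimulatory receptor, held 8 peaks, the strongest at chr1:60748293-60749704 with 7.08-fold and 89 reads. It had 263 and 220.3 CPM in early KO cells, against 472 and 541 CPM in early WT cells (-1.07, SE 0.13, adjusted p = 2.1e-04). Ubash3b, a phosphatase that restrains receptor signalling, held peaks of 11.87- and 10.86-fold and rose by 1.04 (SE 0.14, adjusted p = 3.2e-04). Fyn, a Src family kinase, rose by 1.06 (SE 0.13, adjusted p = 1.3e-04). Naive, memory and trafficking genes were also mixed, with 6 of 12 hosts higher and 5 lower, and 9 of 21 listed genes higher and 10 lower. The integrin gene Itgb1 rose by 2.01 and its partner Itga4 fell by 2.63, and the chemokine receptor gene Cxcr6 fell by 3.15. Of the markers of other cells, 2 of 7 B cell genes (Ebf1 and Blnk) and 2 of 9 macrophage and dendritic cell genes (Flt3 and Zbtb46) were hosts, and all 4 fell under the filter on low values.

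Outside these lists, some of the largest falls among hosts in early Gata3 KO cells were the following. Slc7a8, an amino acid transporter, had 0.433 and 0.229 CPM in KO cells, against 41.3 and 59.0 CPM in WT cells (log2 fold change -7.17, SE 0.35, adjusted p = 5.8e-07). Slc17a6, a vesicular glutamate transporter, had 0.650 and 0.458 CPM in KO cells, against 105 and 91.4 CPM in WT cells (-7.43, SE 0.28, adjusted p = 2.4e-07). Pdpn, the gene of podoplanin, fell by 6.77 and held a peak of 17.09-fold at chr4:143289120-143289866. Cd24a fell by 6.61 (SE 0.36, adjusted p = 9.1e-07), with a single peak of 4.73-fold and no other GATA3 peak assigned. Myo6, an unconventional myosin, fell by 6.42 (SE 0.38, adjusted p = 1.6e-06), with 15.8 and 9.04 CPM in KO cells against 1304 and 836 CPM in WT cells.

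Among the rises, Abcb1a, a drug efflux pump, had 116 and 128 CPM in early KO cells, against 1.084 and 1.503 CPM in early WT cells (6.53, SE 0.19, adjusted p = 1.2e-07). Its single peak was weak, with 1.98-fold and 8 reads, and no other GATA3 peak was assigned to it. Amica1, an adhesion molecule of leukocytes, rose by 5.48 and also had no other GATA3 peak assigned. Slamf7, a receptor of cytotoxic cells, rose by 4.85, Dapk2 by 5.11 and Gramd3 by 6.38.

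In late Gata3 KO cells fewer hosts were called. Of 2595 hosts, 251 were lower (9.67%) and 314 higher (12.1%), where 5.59% of all genes tested were lower and 8.44% higher. The lower share was 7.43% with 1 peak, 12.5% with 2 or 3, 12.3% with 4 to 7 and 18.1% with 8 or more, and the higher share 10.5%, 14.3%, 12.7% and 20.5%. Of hosts with a shared peak 13.9% of 1219 were lower, against 5.89% of 1376 without one. Genes nearest to a GATA3-only intergenic peak had shares close to those of the hosts, with 9.59% of 2920 lower and 12.6% higher. Late counts depend on single libraries: without late WT replicate 2 they were 141 lower and 183 higher.

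Of the 14 Th2 hosts, 7 were lower and 2 higher in late KO cells (median log2 fold change -0.76, against 0.00445 for all genes tested). Of the 35 listed genes tested, hosts or not, 15 were lower and 6 higher, and 5.59% of all genes tested were lower. Gata3, the deleted gene, is again among the lower genes in both counts. Il1rl1 had 53.4 and 23.7 CPM in late KO cells, against 994 and 1080 CPM in late WT cells (-4.79, SE 0.34, adjusted p = 2.5e-05). Il13 had 5.09 and 5.88 CPM in late KO cells, against 180.2 and 206 CPM in late WT cells (-5.11, SE 0.20, adjusted p = 2.0e-06). Pparg had 77.3 and 59.6 CPM in late KO cells, against 133 and 184 CPM in late WT cells (-1.22, SE 0.22, adjusted p = 0.0060), a call lost without late KO replicate 2 (adjusted p = 0.0563). Epas1 fell by 1.61 and Rad50 by 0.67, and Il4ra rose by 1.14.

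Tox2 had no read in 1 late KO library and 0.304 CPM in the other, against 10.8 and 25.2 CPM in late WT cells. The ratio of WT to KO reads, scaled by library size, was 89.3, with an exact 95% counting interval of 30.3 to 435. Myo6 had 34.8 and 20.4 CPM in late KO cells, against 1394 and 993 CPM in late WT cells (-5.47, SE 0.36, adjusted p = 1.7e-05). Slc7a8 (-5.81), the sialyltransferase gene St3gal6 (-5.12), Mctp1 (-4.68) and the ubiquitin ligase gene Rnf128 (-4.41) were other late falls, all called, with at least 5 RPKM in WT cells and no overlap of KO and WT libraries. Rnf128, known as GRAIL, is an anergy factor of T cells.

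Of the 8 Th1 and cytotoxic hosts, 5 rose in late KO cells by edgeR and 4 by DESeq2. None was lower at an unadjusted p under 0.05 by either tool or by limma. Of the 25 listed genes tested, hosts or not, 13 rose and 1 fell by edgeR, and 8.44% of all genes tested were higher. Il12rb2 had 169.7 and 293 CPM in late KO cells, against 12.5 and 9.86 CPM in late WT cells (4.38, SE 0.27, adjusted p = 1.4e-05). Stat4 had 125 and 111 CPM in late KO cells, against 38.9 and 22.7 CPM in late WT cells (1.93, SE 0.26, adjusted p = 0.0011). Il18r1 rose by 2.67 (SE 0.30, adjusted p = 3.5e-04). Tbx21 had 23.9 and 78.3 CPM in late KO cells, against 8.06 and 17.0 CPM in late WT cells (2.06, adjusted p = 0.026), and without late KO replicate 2 the call was lost (0.94, adjusted p = 0.223), as it was in 6 other alternatives. The Th1 markers summed to 8.47 and 58.8 RPKM in the late KO libraries, against 3.33 to 5.94 RPKM in late WT libraries, and the CD8 T cell markers to 6.73 to 8.15 RPKM, against 4.19 to 4.61 RPKM. Other rises were Tgm2 (3.23), the gene of tissue transglutaminase, Card6 (3.06), Tmem163 (2.88), Tmie (2.74), the MAP kinase phosphatase gene Dusp10 (2.37), the receptor adaptor gene Trat1 (2.14) and Cd200 (2.08), which encodes an inhibitory ligand.

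**Figure D5:**
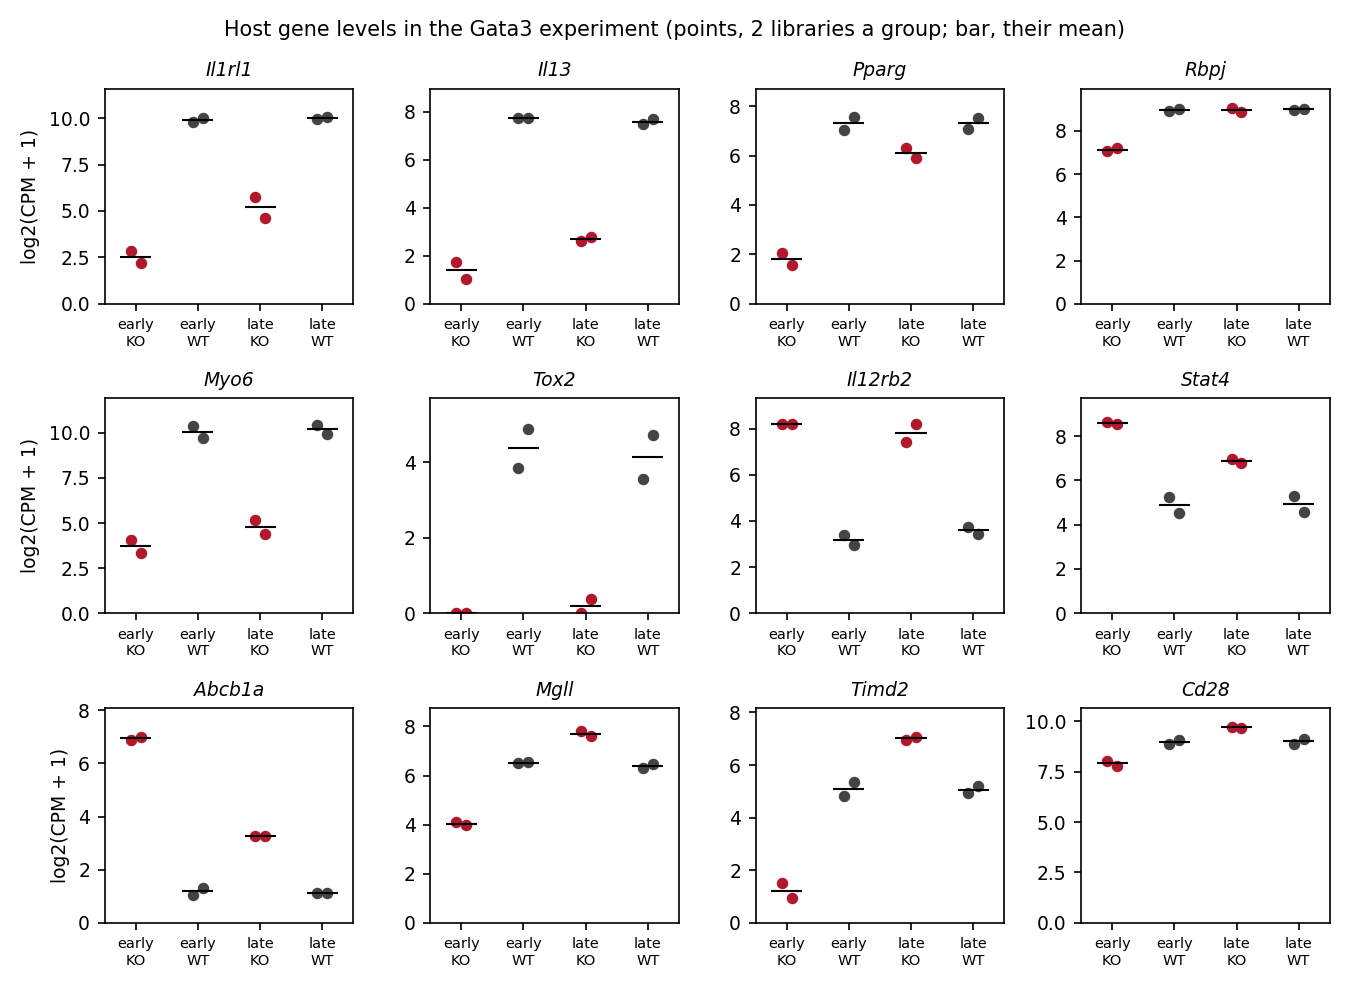
Expression (log2 of CPM + 1) of 12 host genes in the 8 libraries of the Gata3 experiment, with 1 point a library and KO left of WT at each stage. Il1rl1, Il13, Pparg, Rbpj, Myo6 and Tox2 lie below WT in early KO cells, Il12rb2, Stat4 and Abcb1a above WT, and Mgll, Timd2 and Cd28 below WT in early and above WT in late KO cells; short lines are means.

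The stages were compared directly by the difference of the KO effects, late minus early. The fit took early and late WT libraries as separate groups, though same-numbered ones deviated together more than in any other pair of groups (correlation 0.551). Their Th2 markers summed to 1082 to 1100 RPKM early and 1123 to 1153 RPKM late. Whether they are separate cultures is not stated. The difference of effects was positive in 298 of 2595 hosts (11.5%) and negative in 154 (5.93%), where 7.74% of all genes tested were positive and 4.47% negative. DESeq2 gave 294 positive and 162 negative hosts. By limma on log2(RPKM + 1) the counts were closer, with 214 hosts positive (8.25%) and 192 negative (7.40%). There 5.68% of all genes tested were positive and 6.29% negative. By edgeR, the positive share was 8.80% with 1 peak, 12.3% with 2 or 3, 17.9% with 4 to 7 and 34.9% with 8 or more. It was 24.7% in hosts with 4 or more peaks and a shared peak, and 10.9% in those without a shared peak. Of 2920 genes nearest to a GATA3-only intergenic peak, 12.8% had a positive difference and 6.13% a negative one. Counted by calls, 195 hosts were lower and 175 higher at both stages, 36 were lower in early and higher in late KO cells, and 4 the reverse. A further 346 were lower and 281 higher in early KO cells alone, which by itself does not show a difference between stages. These counts by calls were made for hosts only, so they cannot be set against all genes tested.

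The 4 hosts with the smallest p for this difference were Mgll, Kif3a, Timd2 and Atp6v0d2. Kif3a, a kinesin gene near the Th2 cytokine genes, had 172 and 160 CPM in late KO cells, against 130.1 and 147 CPM in late WT cells, and 9.85 and 12.4 CPM in early KO cells, against 135 and 146 CPM in early WT cells. Its difference of effects was 3.92 on the log2 scale (SE 0.19, adjusted p = 8.0e-06). On chr11 (mm10) Kif3a (53567368 to 53604245), Il13 (53631322 to 53634701) and Rad50 (53649518 to 53707318) lie in the same stretch, with Il4 between Kif3a and Il13. The 3 genes differed at the late stage: Kif3a was not called (log2 fold change 0.26, adjusted p = 0.22), while Il13 fell by 5.11 and Rad50 by 0.67.

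Il6ra likewise had 15.5 and 18.8 CPM in late KO cells, against 12.7 and 15.0 CPM in late WT cells, with the early fall given above (difference 4.63, SE 0.40, adjusted p = 1.2e-04). Itga4 (difference 2.71), Irf4 (2.11) and Rbpj (1.80) were called in early KO cells, and their late KO and WT libraries overlapped. Rbpj, for instance, had 526 and 464 CPM in late KO cells, against 502 and 514 CPM in late WT cells.

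In Timd2, Mgll and Atp6v0d2 the direction turned between the stages. Timd2, the gene of TIM-2, had 123 and 134 CPM in late KO cells, against 29.3 and 35.8 CPM in late WT cells (log2 fold change 1.98). In early cells it had 1.84 and 0.915 CPM in KO, against 27.1 and 39.96 CPM in WT (-4.58), and the difference was 6.56 (SE 0.37, adjusted p = 2.1e-05). Mgll, which degrades the lipid mediator 2-arachidonoylglycerol, had 222 and 194 CPM in late KO cells, against 78.9 and 88.7 CPM in late WT cells (1.31). In early cells Mgll had 16.02 and 14.8 CPM in KO, against 90.7 and 91.6 CPM in WT (-2.56). Atp6v0d2, a subunit of the vacuolar proton pump, had 51.9 and 48.9 CPM in late KO cells, against 24.3 and 23.3 CPM in late WT cells (1.081), and fell by 4.75 in early KO cells. In 2 other named hosts the direction turned as well. Cd28 had 845 and 821 CPM in late KO cells, against 478 and 565 CPM in late WT cells (0.68, adjusted p = 0.0086, lost without late WT replicate 1), and fell by 1.07 in early KO cells. Cd200 had a log2 fold change of 2.08 in late KO cells and -2.0 in early KO cells.

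In the Bcl11b experiment, the question for these hosts was which of them differed between late Bcl11b KO and WT cells. Many hosts also have a peak shared with Bcl11b assigned, so they are not genes without Bcl11b binding. Of 2714 hosts tested, 64 were higher in late KO cells (2.36%) and 14 lower (0.516%), where 1.69% of all 10873 genes tested were higher and 0.524% lower. These counts depend on the method and on single libraries: a fit of the 4 late libraries alone called 326 higher and 154 lower, DESeq2 142 higher and 55 lower, and fits without 1 library 4 to 123 higher. The excess of higher hosts over all genes tested was not kept by every method. It was 12.5% against 9.36% in the 4-library fit and 5.23% against 3.49% by DESeq2. By limma on log2(RPKM + 1) the shares were 1.25% and 1.27%. Lower hosts were 5.90% in the 4-library fit, against 6.10% of all genes. Of 1271 hosts with a shared peak assigned 40 were higher (3.15%) and 5 lower, and of 1443 without one 24 were higher (1.66%) and 9 lower. The 14 Th2 hosts had no call in either direction by edgeR, where 2 were higher and 1 lower at an unadjusted p under 0.05. DESeq2 called 1 of them higher, and limma on log2(RPKM + 1) called none. Il13, for example, had 3208 and 3115 CPM in late KO cells, against 1589 and 2191 CPM in late WT cells (log2 fold change 0.74, SE 0.22, adjusted p = 0.13). Of the 36 listed Th2 genes tested, hosts or not, edgeR called 3 higher and 0 lower. Bcl11b transcript was 75.6 and 137 CPM in late KO cells, against 139.7 and 181 CPM in late WT cells (-0.59, SE 0.28, adjusted p = 0.42), and a count over the transcript does not separate the floxed part. Gata3 did not pass the test (-0.16, adjusted p = 0.83).

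Myo6 was one of the 14 lower hosts, with 150.1 and 156 CPM in late Bcl11b KO cells against 514 and 499 CPM in late WT cells (-1.73, SE 0.15, adjusted p = 4.6e-04). It also has a peak shared with Bcl11b assigned. Pdk1, a kinase that restrains pyruvate oxidation, had 32.8 and 30.8 CPM in late KO cells, against 67.9 and 88.7 CPM in late WT cells (-1.30, SE 0.22, adjusted p = 0.015). Atp6v0d2 rose, with 424 and 281 CPM in late KO cells against 65.6 and 50.2 CPM in late WT cells (2.61, SE 0.25, adjusted p = 8.2e-04). Nkain1 (3.79), Mmp10 (3.27), Col18a1 (2.89) and Cd24a (1.74) also rose. Of these, the calls of Myo6 and Atp6v0d2 held without each single library, and the others were lost in at least 1 such fit. In the same libraries the T cell markers summed to 1049 to 1254 RPKM in late KO cells, against 780 to 800 RPKM in late WT cells, and the 4 B cell markers to 5.79 to 7.56 RPKM, against 1.29 to 1.68 RPKM. Their part in these values was not tested.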

How the data were processed

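RNA-seq (16 libraries) and ChIP-seq (3 libraries) tables of mouse Th2 cells were used. Per the labels' protocols, 10 ng of RNeasy-purified RNA entered NuGEN Ovation V2 amplification, and chromatin was prepared with the Diagenode iDeal kit. Tools named in the submitters' processing notes are TopHat2 2.0.13, Bowtie, Novoalign, CASAVA 2.18 and MACS 1.4.2, with the build mm10. The sources used here give no counting tool, use of strand or control for the peak caller. The deposited RNA tables hold the authors' read counts and RPKM for 29257 transcripts of 22878 gene symbols. Per the file headers, each peak has a read count, the authors' fold enrichment (a ratio to background), a score of -10 log10 p and an FDR in percent, with the nearest transcription starts. These describe peaks within a list only.

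Where a gene had several transcripts, the one with the largest summed read count in the 16 libraries stood for it. Genes reaching 1 RPKM in 2 or more libraries of an experiment were tested on counts with edgeR 4.0.16 (TMM, quasi-likelihood, 1 coefficient a group, 8 libraries a fit), with Benjamini-Hochberg adjustment over all genes. Alternatives were DESeq2 1.42.0, limma 3.58.1 on log2(RPKM + 1) and log2(RPKM + 0.1), no filter, stricter peaks, other host definitions, single libraries left out, and the replicate number as a block. The code was tested on simulated data. R was 4.3.3 and Python 3.11.15 (numpy 2.4.6, pandas 2.3.3, scipy 1.17.1, matplotlib 3.10.9). Depth was 4687550 to 14578000 reads in the genes used.

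The regions, gene lists and tests were chosen with earlier results of these data known. Named hosts are those in the Th2 list, the 8 with most peaks, those of the 10 strongest peaks, the 8 largest falls and rises in early and in late Gata3 KO (4 in late Bcl11b KO) among called hosts at 5 RPKM or more whose groups do not overlap, the 4 smallest p for the stage difference, and up to 3 called hosts a list, and not all are printed; 1 of them is not reported here. Tbx21, Il18r1 and the hosts of printed sequences were added after values were seen, as was the host definition by any protein-coding RefSeq gene. No genome was used, so motifs in 200-base windows at all peaks were not analysed here.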

Additional observations from a re-analysis of the deposited data

Results flagged for a closer look

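For 40 named host genes the effect of Gata3 deletion differed between late and early Th2 cells, by edgeR's test of the difference of the KO effects (late minus early, log2 scale). Many of them were named for large or clear effects in these same data, and 4 for the smallest p of this difference. Their number and directions therefore carry no test. Among all genes tested 7.74% had a positive difference and 4.47% a negative one. Genes that were lower in early KO cells and less so, or higher, in late KO cells had positive differences. Among Th2 hosts these were Gata3 (1.14), Batf (1.39), Rbpj (1.80), Il13 (1.82), Irf4 (2.11), Il1rl1 (2.79), Ccr3 (3.71) and Pparg (4.74). Among hosts of the other helper lists they were Il2ra (1.45), Ahr (1.46) and Il21 (5.19). Among signalling, trafficking and transcription factor hosts they were Klf6 (0.73), Hdac4 (0.90), Jak2 (1.31), Cxcr6 (1.67), Cd28 (1.74), Il7r (2.33), Itga4 (2.71) and Il6ra (4.63).

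The remaining positive differences were those of St8sia4 (1.97), Tanc2 (3.42), Cd24a (3.7995), Mgll (3.87), Kif3a (3.92), Cd200 (4.08), Pdpn (4.98), Slc17a6 (5.69), Atp6v0d2 (5.83) and Timd2 (6.56). Col18a1 (5.35) and Mmp10 (6.76), named for their rise in late Bcl11b KO cells, belong here too. Mmp10 had no read in early Gata3 KO cells, so its fitted difference depends on the prior count.

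Negative differences, from genes whose rise in KO cells was larger early than late, were those of Ubash3b (-1.18), Dusp10 (-1.30), Tcf7 (-1.73), Stat4 (-1.77), Gramd3 (-3.09), Dapk2 (-3.22), Abcb1a (-3.67), Amica1 (-4.39) and Slamf7 (-4.42). The Th2 markers summed to 309 to 353 RPKM in late KO libraries, against 85.7 to 90.3 RPKM in early KO libraries. The sum includes Gata3, Il13 and Il1rl1, so it partly restates their differences given above. Its part in the other differences was not tested.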

How the results depend on the processing

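Of 109 named gene results none reversed, and 94 kept their call in every alternative run on them. Many of these genes were named for large or clear effects in these same data, so this stability was partly set by the choice. These 109 results are of the early Gata3, late Gata3 and late Bcl11b comparisons, and the flagged stage differences are not among them. The balance of early counts turned by limma, with 476 lower and 497 higher hosts on log2(RPKM + 1) and 485 and 490 on log2(RPKM + 0.1). Restricting the regions to those above the median score left 3285 peaks, with early 350 lower and 270 higher hosts, late 165 and 182, stage difference 190 positive and 95 negative, and Bcl11b late 38 higher and 7 lower. With any protein-coding RefSeq gene around a distal GATA3-only peak as host (10514 peaks, chosen after seeing the data), early counts were 663 lower and 530 higher, and late counts 276 and 367. Without the filter on low values, 254 hosts had a negative stage difference and 39 were higher in late Bcl11b KO cells. Late Bcl11b counts depended most on the method, with 142 higher and 55 lower by DESeq2, 34 higher by limma on log2(RPKM + 1), 19 and 6 on log2(RPKM + 0.1), and 326 and 154 in a fit of the 4 late libraries alone. The share of all genes called moved with these counts, and by limma on log2(RPKM + 1) the higher share of hosts (1.25%) did not exceed that of all genes (1.27%). The limma fits move the median of all genes there to -0.159 and -0.197. Over all genes called, the higher share in late Bcl11b KO cells was 76.3% by edgeR, 65.1% by DESeq2, 63.0% by limma on log2(RPKM + 1) and 60.6% in the 4-library fit, and the positive share of stage differences was 63.4% by edgeR and 47.4% and 51.8% by limma. The cause was not tested.

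With single libraries left out, early counts ranged from 394 to 580 lower and 299 to 497 higher, late counts from 141 to 237 and 183 to 321, stage differences from 194 to 302 positive and 66 to 160 negative, and late Bcl11b counts from 4 to 123 higher and 1 to 34 lower. Counts moved by over 1.5 times without early Gata3 KO replicate 1 (early higher 303, stage negative 68) or 2 (299, stage negative 66, stage positive 194), late WT replicate 1 (late higher 191, lower 148) or 2 (183 and 141), and late KO replicate 1 (late higher 203) or 2 (late lower 148). For late Bcl11b, leaving out any of the 4 late libraries left 4 to 9 higher and 1 lower, and leaving out an early WT library gave 121 or 123 higher and 34 or 31 lower. With the replicate number as a block, late counts were 388 lower and 487 higher, stage differences 453 positive and 285 negative, and early counts 681 lower and 593 higher. No label ties a replicate number to one animal or culture, and same-numbered libraries deviated together with a correlation of 0.140 to 0.551 in the Gata3 experiment and of -0.0658 to 0.283 in the Bcl11b experiment. The highest, 0.551, was that of early WT with late WT, so these WT groups may not be independent of each other. Peaks come from 1 library an antibody, so a missing Bcl11b call has no replicate check. The median of 12 reads a peak is that of the GATA3 library. Bcl11b reads at these regions were not analysed here. With 2 libraries a group, genes near the filter have wide errors.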
